A study of Mus musculus with 4 samples.

Results

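The kinesins are motor proteins that use ATP to walk along, or take apart, microtubules. The genes described here are those whose symbol starts with Kif or Kifc followed by a number, taken from the annotation of the Clariom S Mouse array, with the brightest feature of each symbol. This gave 39 of the 19505 distinct genes with a symbol, and each of the 39 had 1 feature. They were sorted by textbook role into 15 mitotic kinesins, 15 transport kinesins and 9 others, which act in cilia, centrioles or signalling or are little known. Kif1c and Kif17 had been placed in the transport class and are not analysed here.

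The arrays came from CD8+ T cells of the spleen and lymph nodes of C57/BL6 mice, which had been activated in culture for 3 days with beads carrying antibodies to CD3 and CD28 and with IL-2 in the medium. The control group was 2 untreated cultures and the spermidine group 2 cultures with 25 µM spermidine, a polyamine, in the medium. Both groups carried the same activation, and no genotype, age or pooling of animals is given in the sources used here. Each sample is labelled a biological replicate, but which animal or culture it came from is not said, and the p-values measure only the spread between these arrays, which may be partly technical. The comparison asked how transcript levels in activated CD8+ T cells differ when spermidine is present.

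Mitotic kinesins build, position and dismantle the spindle. Some slide antiparallel microtubules to separate the poles, some shorten microtubule ends at kinetochores, some carry chromosome arms toward the metaphase plate, and some organise the midzone and the abscission of daughter cells. Transcripts of many of them are known to peak in G2 and mitosis. Transport kinesins carry vesicles, endosomes, mitochondria and other cargo in cells that need not divide, and many of them are best known from neurons.

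Signals are log2 values made with RMA, a method that corrects background and normalizes arrays by quantiles. Gene features of the 4 arrays had medians between 5.13 and 5.25, and the number of arrays limits the precision. As a guide to background, the 95th percentile of 23 antigenomic features, whose probes match no genomic sequence, averaged 6.35 over the arrays, and signals below it are called below background here. All 7 measured CD8 T cell markers were above background, with Cd8a between 16.57 and 16.68. In 4 of them (Cd8a, Cd8b1, Cd3d and Cd3g) both spermidine arrays lay below both control arrays, beside 22.7% of gene features above background. The largest difference among these was in Cd8b1 (-0.34). Cd28 had the opposite order (0.43), which 19.5% of gene features above background shared. Of the CD4 lineage genes, Zbtb7b differed by 0.76 and Cd4 by -0.062. Of 6 measured B cell markers 4 had both spermidine arrays above both control arrays, beside 18.3% of all gene features (summed linear signal 400 to 436 in control and 506 to 659 in spermidine), 2 of the 6 lay above background, and Cd79a averaged 0.81 (log2) higher. The 7 measured macrophage and dendritic cell markers were all below background. Of 4 NK cell markers, Eomes, which activated CD8 T cells also express, ranged from 11.82 to 13.57 with overlapping groups, Klrb1c overlapped too, and the dim Klre1 and Ncr1 differed by -0.85 and 0.44. The 8 spike-in controls averaged 0.44 (log2) higher in the spermidine arrays. The part of these shifts in the kinesin values was not tested.

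In the spermidine cultures the mitotic kinesins had lower signals as a group, and the transport kinesins did not. The median log2 difference (spermidine minus control) was -0.75 over the 15 mitotic kinesins and 0.18 over the 15 transport kinesins, beside -0.0067 over all 22206 gene features. The difference was negative in 14 of the 15 mitotic kinesins, beside 50.9% of all gene features and 54.2% of those above background. In 13 of the 15 mitotic kinesins both spermidine arrays lay below both control arrays, an order found in 18.4% of all gene features and in 22.7% of those above background. That order was found in 0 of the 15 transport kinesins. The largest differences among mitotic members belonged to Kif18a (-1.17), Kif23 (-1.11), Kif14 (-1.07) and Kif2c (-0.98).

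These are values and not called changes. By limma with Benjamini-Hochberg adjustment over all gene features, 0 of the 39 kinesins passed an adjusted p of 0.05, and the smallest adjusted p among them was 0.637. Among all gene features 0% passed. At an unadjusted p under 0.05, 9 mitotic kinesins were lower, beside 3.64% of all gene features and 5.44% of those above background, and 0 mitotic kinesins were higher. No transport kinesin was lower at that level and 2 were higher, beside 3.38% of all gene features. These 2, Kif13a and Kif21a, were below background. Of the 7 transport kinesins above background 0 were higher at that level, beside 3.81% of gene features above background. Leaving out spermidine replicate 2 brought the mitotic median to -0.43, and leaving out spermidine replicate 1 brought it to -1.06. The transport median fell between 0.044, with control replicate 2 left out, and 0.27, with spermidine replicate 1 left out.

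**Figure D1:**
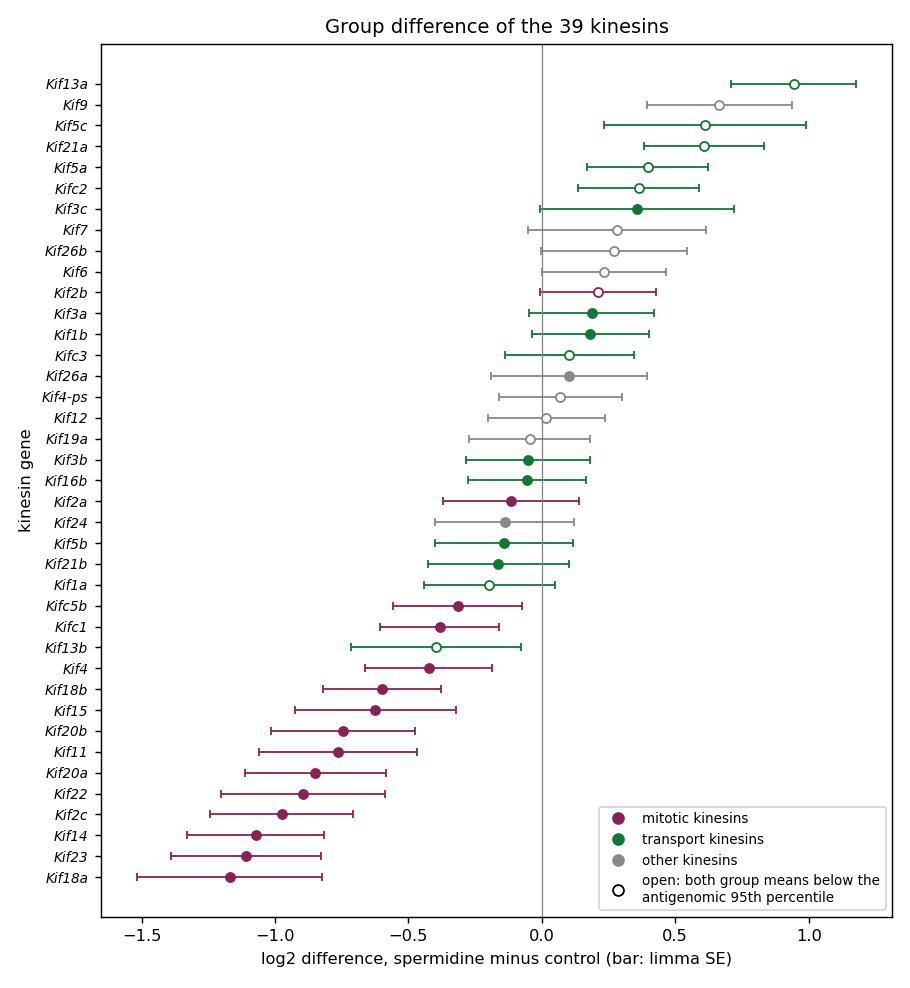
The log2 difference between spermidine and control (horizontal axis, bars are limma standard errors) is drawn for each of the 39 kinesins, coloured by class, with open points for genes whose group means were both below background. All 14 mitotic kinesins above background lie left of 0, from -1.17 for Kif18a to -0.12 for Kif2a, while the transport kinesins lie on both sides, from -0.40 for Kif13b to 0.94 for Kif13a.

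Of the kinesins of the midzone and of cytokinesis, Kif23 and Kif14 differed most. Kif23, the motor subunit of centralspindlin, which bundles midzone microtubules together with Racgap1, had log2 signals of 11.80 and 11.66 in control and of 10.96 and 10.28 with spermidine. The difference was -1.11 ± 0.28 (SE), a 2.16-fold lower level (limma adjusted p = 0.637). Both spermidine arrays were low and the groups did not overlap, but the spermidine arrays stood further apart from each other than the control arrays.

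Kif14, which works with citron kinase and Prc1 in cytokinesis, stood at 9.35 and 8.96 in control and at 8.27 and 7.90 with spermidine. Its difference of -1.07 ± 0.26 (SE; adjusted p = 0.637, limma) lay, whichever array was left out, between -0.88 and -1.27. The gap between arrays of a group was 0.39 in control and 0.37 in spermidine, so that Kif14 was one of the members in which the replicates of both groups spread alike.

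Kif20a, which moves the chromosomal passenger complex with Aurkb to the midzone, gave 11.83 and 11.90 in control and 11.31 and 10.72 with spermidine. Kif20b, which acts late in cytokinesis, gave 11.998 and 12.0055 in control and 11.57 and 10.94 with spermidine. In both genes the control arrays nearly coincided, and spermidine replicate 2 was the lowest array. Their differences were -0.85 ± 0.26 and -0.75 ± 0.27 (SE), and without spermidine replicate 2 they were -0.55 and -0.43.

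Of the kinesins that shorten or restrain microtubule ends, Kif18a and Kif2c differed most. Kif18a, which damps the movements of chromosomes at the metaphase plate, had signals of 8.94 and 8.66 in control and of 8.15 and 7.11 with spermidine. This was the largest mean difference of the family, -1.17 ± 0.35 (SE), a 2.25-fold lower level, and also the one with the widest gap between the spermidine arrays among mitotic members (1.05). Without spermidine replicate 2 it was -0.65 and without spermidine replicate 1 it was -1.69.

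Kif18b, the relative of Kif18a that limits the growth of astral microtubules, had signals of 9.76 and 9.83 in control and of 9.14 and 9.26 with spermidine. The spermidine arrays were close together and replicate 1 was the lower one, and the difference of -0.60 ± 0.22 (SE) lay between -0.54 and -0.66 whichever array was left out.

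Kif2c, also known as MCAK, removes faulty kinetochore attachments by depolymerising microtubules. It gave 11.88 and 11.96 in control and 11.25 and 10.64 with spermidine, a difference of -0.98 ± 0.27 (SE) or a 1.97-fold lower level. Kif2a is a depolymerase of the same kinesin-13 family that serves at spindle poles and also in non-dividing cells such as neurons. It gave 13.08 and 12.84 in control and 13.08 and 12.61 with spermidine, so its groups overlapped and its difference was -0.12 ± 0.25 (SE).

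Within each array, the log2 signal of Kif2c relative to that of Kif2a was lower in both spermidine arrays than in both control arrays, with a mean group difference of -0.86. The two-sided exact permutation test gave p = 0.333, which is the smallest value that 4 arrays allow (0.444 with Benjamini-Hochberg adjustment over pairs). This pair was 1 of 8 compared, all chosen after their values were seen. In 6 of them both spermidine arrays lay below both control arrays, an order that 18.4% of all gene features had as single features. The groups overlapped for Kif18a relative to Kif18b and for Kif4 relative to Kif21b. Where a member already seen to be lower was set against one that differed little, as Kif2c against Kif2a, the pair largely repeats that member's own order. The remaining mitotic member of the family of Kif2c and Kif2a, Kif2b, was below background on every array (2.58 to 2.84).

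Among the motors that keep the spindle bipolar, Kif11, also called Eg5, which pushes the poles apart and is the target of several antimitotic compounds, had signals of 13.66 and 13.78 in control and of 13.35 and 12.57 with spermidine, a difference of -0.76 ± 0.30 (SE). Kif15, which can stand in for Kif11 in keeping the spindle bipolar, stood at 12.65 and 12.52 in control and at 12.37 and 11.55 with spermidine. Neither pair of groups overlapped, and spermidine replicate 2 was the lowest array of both genes. Without it the differences were -0.37 for Kif11 and -0.21 for Kif15.

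The chromokinesins Kif22 and Kif4 bind chromosome arms. Kif22, which helps to push the arms away from the poles, gave 9.84 and 9.80 in control and 9.36 and 8.49 with spermidine (difference -0.90 ± 0.31, SE), and -0.46 without spermidine replicate 2. Kif4, a partner of condensin and of Prc1, gave 10.78 and 11.09 in control and 10.63 and 10.39 with spermidine (difference -0.42 ± 0.24, SE). The groups of Kif4 lay closer together, and without control replicate 2 the difference was -0.27.

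Kifc1, the minus-end motor that focuses spindle poles and clusters extra centrosomes, stood at 9.93 and 9.73 in control and at 9.43 and 9.46 with spermidine. Its near copy Kifc5b stood at 7.08 and 7.41 in control and at 7.06 and 6.81 with spermidine. The differences were -0.38 ± 0.22 and -0.31 ± 0.24 (SE), the smallest among the 13 members whose groups did not overlap. Without control replicate 2 that of Kifc5b was -0.15. Because the genes are close paralogs, signals of Kifc1 and Kifc5b may not be fully separate and both values are uncertain.

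**Figure D2:**
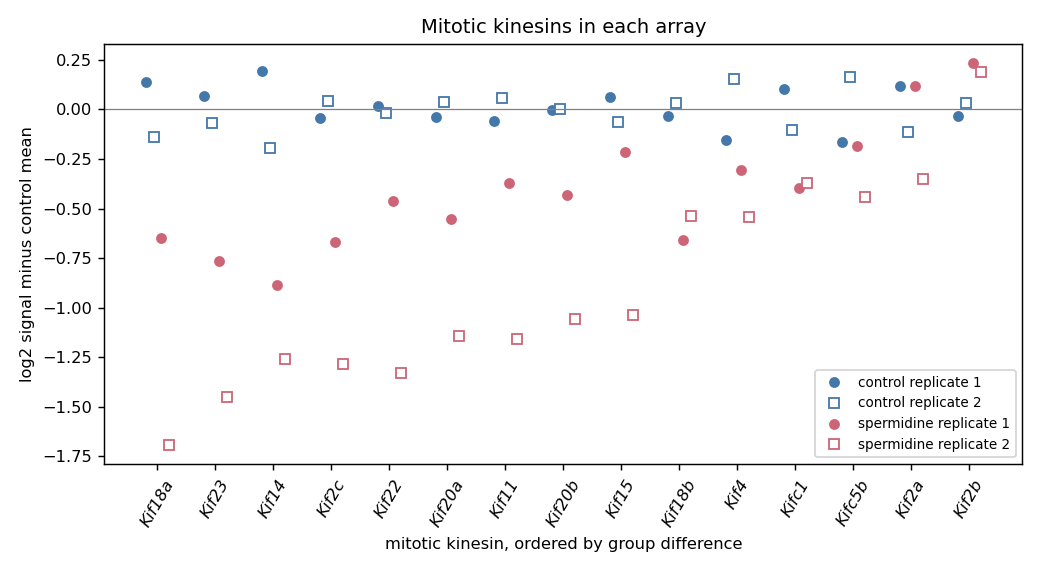
Each point is 1 array of 1 mitotic kinesin, drawn as its log2 signal minus the mean of the control arrays of that gene, with genes ordered by group difference. The spermidine arrays of 13 members lie below both control arrays, spermidine replicate 2 is the lowest array in 12 of the 14 members above background, and Kif18b and Kifc1 are the exceptions with spermidine replicates close together.

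The spermidine arrays differed from each other in a shared way across the mitotic members. Taken as the median over the 15 genes of the signal minus the gene's control mean, spermidine replicate 1 stood at -0.43 and spermidine replicate 2 at -1.06, whereas the control arrays stood at -0.00375 and 0.00375. Signals were lower in spermidine replicate 2 than in replicate 1 for 13 of the 15 mitotic kinesins, for 4 of the 15 transport kinesins for 52.5% of all gene features and for 61.2% of those above background. Spermidine replicate 1 alone was below the control mean in 13 of the 15 mitotic kinesins, and replicate 2 alone in 14.

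Among the transport kinesins, those clearly above background differed little. Kif5b, the widely expressed heavy chain of conventional kinesin-1, gave 13.34 and 12.82 in control and 13.05 and 12.83 with spermidine. Kif3a and Kif3b, which form the kinesin-2 motor together with Kifap3, gave 6.90 and 6.62 against 6.85 and 7.05 (Kif3a), and 8.57 and 8.44 against 8.60 and 8.30 (Kif3b). The groups overlapped in all 3 genes, with differences of -0.14 ± 0.26, 0.19 ± 0.23 and -0.053 ± 0.23 (SE).

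Kif21b, which limits microtubule growth and is expressed in lymphoid as well as neural cells, stood at 9.52 and 9.29 in control and at 8.96 and 9.52 with spermidine. Kif16b, a carrier of early endosomes, stood at 7.77 and 7.61 in control and at 7.65 and 7.62 with spermidine. Neither showed a separation of groups, and the differences were -0.16 ± 0.27 and -0.055 ± 0.22 (SE).

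Kif1b, a carrier of mitochondria and of synaptic vesicle precursors, gave 6.75 and 6.66 in control and 6.85 and 6.91 with spermidine. It was the only one of 7 transport kinesins above background whose groups did not overlap, at a difference of 0.18 ± 0.22 (SE) that is smaller than its standard error. Kif3c gave 6.73 and 7.31 in control and 6.87 and 7.88 with spermidine, and Kif5c 5.07 and 5.86 in control and 5.61 and 6.55 with spermidine. In both of these neuronal kinesins the replicate 2 arrays were high in each group and the groups overlapped, and Kif5c was below background by its group means.

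The 7 transport kinesins above background had a median difference of -0.053, so the positive median of the class came from its dim members. The 8 below background had a median of 0.38. Among them Kif13a, an endosome motor, had 3.79 and 3.44 in control and 4.52 and 4.60 with spermidine, a difference of 0.94 ± 0.24 (SE; limma adjusted p = 0.637). Kif21a had 3.86 and 3.75 in control and 4.31 and 4.52 with spermidine (0.61 ± 0.23, SE). Kif5a and Kifc2 also had both spermidine arrays above both control arrays. In all, 5 of the 15 transport kinesins had that order, which 18.3% of all gene features shared, and 4 of the 5 were below background, where signals do not give a fold.

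The 9 other kinesins had a median difference of 0.10. Kif26a, a member of kinesin-11 that acts in signalling rather than as a motor, gave 7.89 and 8.46 in control and 8.01 and 8.54 with spermidine, with the replicate 2 array high in each group. Kif24, which holds back cilium formation at the mother centriole, gave 7.06 and 7.04 in control and 7.20 and 6.63 with spermidine, with overlapping groups. These were the only 2 of the 9 above background.

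Below background, Kif9, a motor of motile cilia and flagella, had 4.08 and 4.67 in control and 4.90 and 5.18 with spermidine (0.67 ± 0.27, SE). Kif19a, which trims the tips of cilia, had 4.42 and 4.66 in control and 4.52 and 4.46 with spermidine. The transcribed pseudogene Kif4-ps had 4.61 and 4.83 in control and 4.70 and 4.89 with spermidine, without the separation seen in Kif4. Kif6, Kif7, Kif12 and Kif26b were below background as well, with overlapping groups and differences between 0.017 and 0.28.

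Several sequence families hold members of more than one role. Kif14 belongs to kinesin-3, like the carriers Kif1a, Kif1b, Kif13a, Kif13b and Kif16b. Of these Kif14 alone had both spermidine arrays below both control arrays. Kif13b, Kif1a and Kif16b also had negative differences (-0.40, -0.20 and -0.055), with overlapping groups. In kinesin-4, Kif4 had that order and Kif21b did not, but the signal of Kif4 relative to Kif21b within each array overlapped between the groups (exact permutation p = 0.667). In kinesin-8, Kif18a and Kif18b had it and the ciliary Kif19a did not. Kif19a and Kif13a were below background, where a lower signal could hardly show. Kif13b and Kif1a were below background as well, so their differences are uncertain. These contrasts are descriptions, since the members were chosen with earlier results of these data known.

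Promoters of the kinesin classes were compared as a description, and a link to the spermidine differences was not tested. The set of RefSeq (GRCm38.p6) promoters used here held 30 of the 39 kinesins. Not searched were the mitotic Kif20a and the transport kinesins Kif5b, Kif21b, Kif13b, Kif5a, Kifc2 and Kifc3, so the transport class is covered only in part. The windows ran from 250 bases before the start over the next 50 bases and were searched on both strands. The first motif was the cell cycle genes homology region (CHR, written TTTGAA or TTCGAA), an element known from promoters of G2 and mitosis genes, where it is bound by MuvB complexes. The others were the NF-Y box (CCAAT) and the core of sites for E2F factors (GCGGGAA or GCGCGAA). CHR letters stood in 11 of 14 mitotic promoters (78.6%), in 0 of 9 transport promoters and in 19.4% of the first listed promoters of 27025 genes. Matches are descriptions of the letters and not proof of a bound site.

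The next sequences let that contrast be read for the members with the largest values: the 6 mitotic kinesins and the 2 transport kinesins above background with the largest limma statistics in the searched set, from 120 bases before the start over the next 30 bases. All are 5′ to 3′ on the strand of the gene, with matches to any of the 3 motifs, on either strand, in capitals (TTTGAA or its complement TTCAAA for the CHR, CCAAT or ATTGG for the NF-Y box). They lie at chr1:136467728-136467877 on the plus strand (Kif14), chr9:61946770-61946919 on the minus strand (Kif23), chr4:117178743-117178892 on the minus strand (Kif2c), chr2:109280618-109280767 on the plus strand (Kif18a), chr7:127042391-127042540 on the minus strand (Kif22), chr19:34922238-34922387 on the plus strand (Kif20b), chr12:3365012-3365161 on the plus strand (Kif3c) and chr4:149307704-149307853 on the minus strand (Kif1b).
Kif14: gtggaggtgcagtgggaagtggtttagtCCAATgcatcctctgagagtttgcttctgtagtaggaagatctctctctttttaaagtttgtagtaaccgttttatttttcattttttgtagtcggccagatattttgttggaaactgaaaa
Kif23: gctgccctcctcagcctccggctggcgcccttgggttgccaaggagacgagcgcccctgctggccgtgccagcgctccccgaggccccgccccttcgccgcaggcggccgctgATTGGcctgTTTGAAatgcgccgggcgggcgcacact
Kif2c: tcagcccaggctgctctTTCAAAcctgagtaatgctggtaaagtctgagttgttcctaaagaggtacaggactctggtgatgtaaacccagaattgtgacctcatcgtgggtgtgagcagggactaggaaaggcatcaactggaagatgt
Kif18a: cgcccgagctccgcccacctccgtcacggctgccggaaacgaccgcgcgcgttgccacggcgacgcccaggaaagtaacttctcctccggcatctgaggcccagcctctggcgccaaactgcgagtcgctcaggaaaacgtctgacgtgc
Kif22: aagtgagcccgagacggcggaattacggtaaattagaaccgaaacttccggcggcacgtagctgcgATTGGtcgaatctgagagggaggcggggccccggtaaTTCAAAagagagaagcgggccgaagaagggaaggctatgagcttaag
Kif20b: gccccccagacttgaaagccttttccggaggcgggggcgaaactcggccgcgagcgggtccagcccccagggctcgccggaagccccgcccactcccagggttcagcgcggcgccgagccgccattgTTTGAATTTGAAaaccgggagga
Kif3c: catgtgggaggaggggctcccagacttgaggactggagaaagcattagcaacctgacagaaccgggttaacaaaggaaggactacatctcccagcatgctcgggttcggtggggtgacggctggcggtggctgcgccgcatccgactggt
Kif1b: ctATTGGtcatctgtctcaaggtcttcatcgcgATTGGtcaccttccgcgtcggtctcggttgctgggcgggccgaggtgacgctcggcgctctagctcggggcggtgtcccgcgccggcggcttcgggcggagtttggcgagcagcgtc

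Kif23 and Kif22 each show an NF-Y box followed by a CHR close to the start, and Kif20b shows CHR letters in tandem just after it. Kif18a, the mitotic kinesin with the largest difference, has none of the 3 motifs in its window as spelled here. Other spellings of these sites were not searched. The CHR letters of Kif14 lie upstream of the printed stretch and begin at position -228, and those of Kif2c begin at -103, counting the start base as 1 with no 0. For Kif14 and Kif2c the listed start lies 1547 and 3852 bases inside the outer end of the gene, and the same holds for the transport kinesin Kif3a (1668 bases) and for Kif26a (2234 bases), so the start used in T cells may be another for these 4. Of the transport promoters, Kif1b holds a pair of NF-Y boxes and Kif3c none of the motifs.

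The CHR stood within 50 bases of the start in 9 of the 14 mitotic promoters (64.3%) and in 5.29% of all first listed promoters, a narrower window that was chosen after the positions were seen. Besides Kif23, Kif22 and Kif20b these were 6 mitotic kinesins, shown with 30 bases around the CHR in capitals. The stretches are chr11:102925104-102925133 on the minus strand (Kif18b), chr19:37376351-37376380 on the plus strand (Kif11), chr9:122951050-122951079 on the plus strand (Kif15), chrX:100626072-100626101 on the plus strand (Kif4), chr17:33890615-33890644 on the minus strand (Kifc1) and chr17:26917108-26917137 on the plus strand (Kifc5b).
Kif18b: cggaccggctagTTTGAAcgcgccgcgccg
Kif11: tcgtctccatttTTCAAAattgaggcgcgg
Kif15: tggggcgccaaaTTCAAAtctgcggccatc
Kif4: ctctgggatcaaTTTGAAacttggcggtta
Kifc1: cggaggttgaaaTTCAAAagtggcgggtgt
Kifc5b: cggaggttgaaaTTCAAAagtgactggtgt

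The stretches of Kifc1 and Kifc5b have the same base at 28 of 30 positions. Among the 7 other kinesins searched, Kif24 and Kif26b had a CHR near the start, with differences of -0.14 and 0.27. NF-Y boxes stood in 9 of 14 mitotic promoters (64.3%), in 3 of 9 transport promoters (33.3%) and in 37.9% of all first listed promoters. E2F cores, in the spellings searched, stood in 1 of 14 mitotic promoters (7.14%, Kif2a) and in 6.06% of all.

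**Figure D3:**
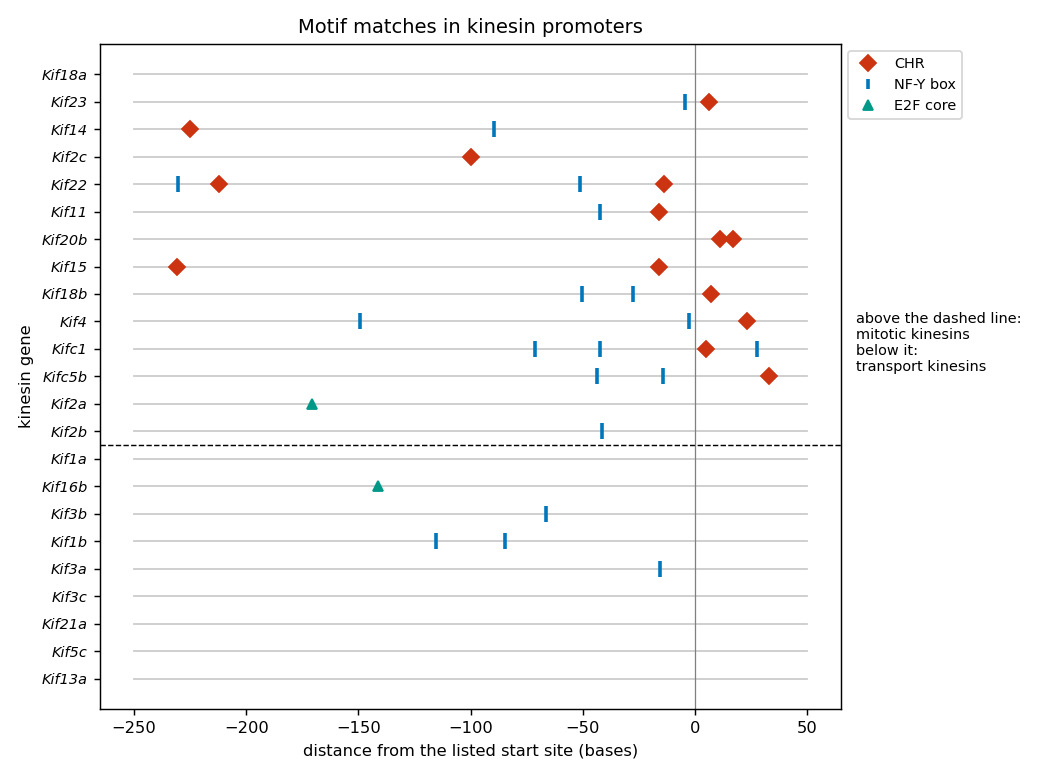
Each horizontal line is the searched promoter window of 1 kinesin, from 250 bases before the listed start to 50 bases after it, with the matches to the CHR, NF-Y and E2F motifs placed by distance from the start; mitotic kinesins are above the dashed line and transport kinesins below it. CHR matches gather near the start in 9 of the 14 mitotic promoters, and 0 of the 9 transport promoters hold one.

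Transcripts for most of the proteins that work with the mitotic kinesins had the same kind of values. Of 18 measured partners in cell division, all above background, 15 had both spermidine arrays below both control arrays, beside 22.7% of gene features above background. A lower mean was found in 17, beside 54.2%, and 12 were lower at an unadjusted p under 0.05, beside 5.44%. Numa1 went the other way (0.21), with both spermidine arrays above both control arrays, an order that 19.5% of gene features above background had. Cit, the gene of citron kinase, had overlapping groups (-0.38). None passed an adjusted p of 0.05 (limma). The median difference was -0.93, and it was -0.50 without spermidine replicate 2. Cep55, needed for abscission, had -1.15 ± 0.26 (SE), and the mitotic kinase Plk1 had -1.27 ± 0.29 (SE). Tpx2, which starts spindle microtubules near chromosomes, had -1.10, and Cdca8, a subunit of the chromosomal passenger complex, had -0.91. Cenpe, the kinetochore motor of kinesin-7 whose symbol the rule does not take in, gave 12.43 and 11.75 in control and 12.07 and 10.79 with spermidine, with overlapping groups.

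Adaptors and light chains of the transport kinesins had a median difference of 0.26. Of 17 measured, 8 had both spermidine arrays above both control arrays, beside 18.3% of all gene features, and 0 had them below, beside 18.4%. At an unadjusted p under 0.05, 3 were higher, beside 3.38%, and 0 passed an adjusted p of 0.05 (limma). Klc1, a light chain that links kinesin-1 to cargo, gave 11.64 and 11.44 in control and 12.33 and 12.40 with spermidine, a difference of 0.82 ± 0.22 (SE). Madd, which ties kinesin-3 motors to vesicles, had 0.67 ± 0.23 (SE), and the mitochondrial adaptors Trak2 and Trak1 had 0.56 ± 0.24 and 0.51 ± 0.23 (SE). The heavy chain Kif5b did not share the higher signal of Klc1.

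Dynein and dynactin, the motor complex that runs toward the opposite microtubule end, had a median difference of 0.030 over 25 genes, with both spermidine arrays below both control arrays in 4 and above them in 7, beside 18.4% and 18.3% of all gene features. The heavy chain Dync1h1 stood at 12.19 and 12.17 in control and at 12.71 and 12.65 with spermidine (0.50 ± 0.22, SE), and Ndel1, a dynein regulator, had 0.39, while the subunits Dctn6 and Dynll1 had -0.43 and -0.47. The tubulins, which form the track itself, had a median of -0.093 over 19 genes and of -0.34 over the 15 above background. Both spermidine arrays were below both control arrays in 8 of the 19 and above them in 3, beside the same 18.4% and 18.3%. Tuba1c had -0.69 ± 0.25 (SE), Tuba1b -0.58 ± 0.23 (SE) and Tuba4a -0.55 ± 0.24 (SE), and Tubb2b had 0.76 ± 0.28 (SE). Tubulin genes are close copies of each other, so their single values are uncertain. In both lists 0 members passed an adjusted p of 0.05 (limma).

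Markers of dividing cells also had spermidine replicate 2 as the lowest array by their medians, and both spermidine arrays below both control arrays in 8 of 9 G2/M and 8 of 9 S-phase genes, beside 22.7% of gene features above background. The median signal minus control mean of 9 G2/M markers (such as Cdk1, Ccnb2 and Top2a) was -0.74 in spermidine replicate 1 and -1.71 in replicate 2, and that of 9 S-phase markers (such as Mcm2 and Pcna) was -0.40 and -1.04. For the mitotic kinesins the same quantities were -0.43 and -1.06. Control replicates 1 and 2 stood at 0.178 and -0.178 for the G2/M markers and at 0.157 and -0.157 for the S-phase markers. For both marker lists replicate 2 was thus the lower array in each group, whereas the mitotic kinesins had controls at -0.00375 and 0.00375. In bulk RNA, fewer cells in mitosis and less kinesin RNA per dividing cell cannot be told apart. Mki67, the proliferation marker, differed by -0.36, with spermidine replicate 1 at 16.10, between the control arrays at 16.15 and 15.88.

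**Figure D4:**
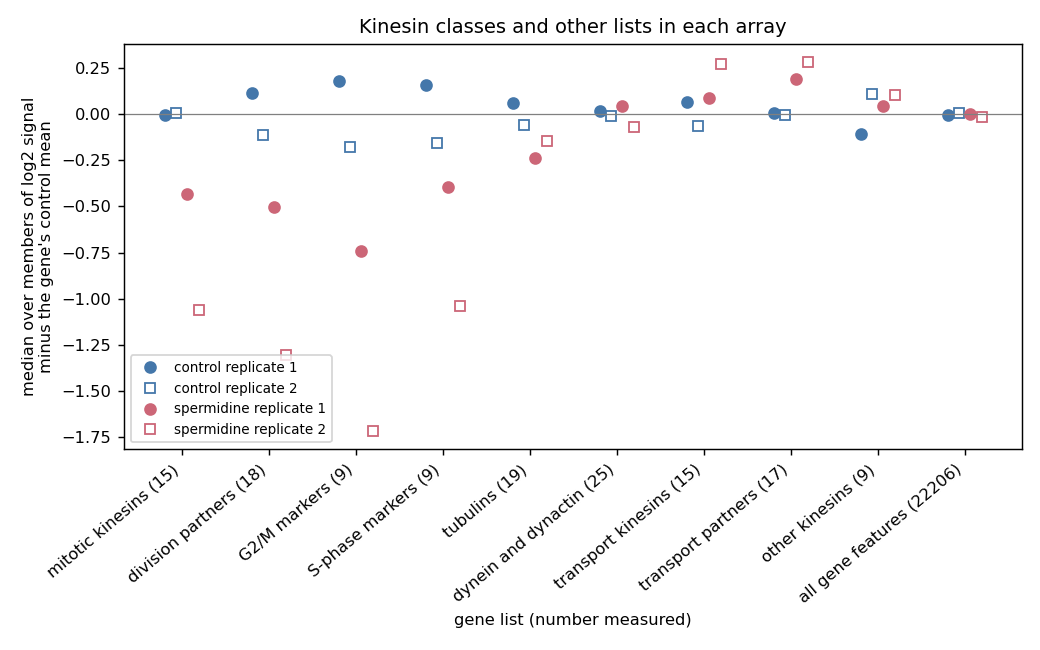
For each gene list and array the point is the median over measured members of the log2 signal minus the gene's control mean; the number of measured genes is in brackets. Mitotic kinesins, division partners, G2/M markers and S-phase markers all have spermidine replicate 2 lowest and spermidine replicate 1 next. Dynein and dynactin also have spermidine replicate 2 lowest, but near 0 (-0.070). Both kinesin transport lists lie slightly above 0 in both spermidine arrays.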

How the data were processed

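Groups and replicate numbers came from the sample titles, and 250 ng of RNA was labelled per array, per the labels' protocols. Per the submitters' processing notes, the authors used Affymetrix Expression Console and RMA (versions not given in the sources used here) for the deposited log2 values; the base was inferred from the values (1.72 to 19.93 in gene features). RMA compresses differences of dim features. Of 28846 features 6640 were controls, and 22206 gene features were fitted by limma 3.58.1 under R 4.3.3 (moderated linear model, two-sided, 5.96 prior and 2 residual degrees of freedom), with Benjamini-Hochberg adjustment over all of them and a threshold of 0.05. The annotation gave 19572 features a symbol and 2634 none; the 39 kinesin symbols were found by Entrez identifier in RefSeq and 0 changed.

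Values in every array were given for mitotic kinesins above background, for the 8 transport and 5 other kinesins of highest mean level, and for some dimmer members and partners chosen after their values were seen (Kif13a, Kif21a, Cenpe, Mki67). Up to 4 members of each partner, dynein and tubulin list were named by limma statistic, most by their difference alone. Numa1 and Cit were named in addition because they did not share the order of most of their list. Members, classes and lists were chosen with earlier results of these data known, so no list was tested as a set. On simulated data with 200 changed features among the 22206, in 20 simulations, 4.18% of those changed 2-fold passed. The share was 86.0% at 4-fold and 98.5% at 8-fold, with 4.89% false calls. These shares describe the simulated data only. Whether they hold for dim features, or for arrays that differ in a shared way as the spermidine arrays did, was not tested. Motifs were searched with Python 3.11.15. No protein sequences were used here.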

Additional observations from a re-analysis of the deposited data

How the results depend on the processing

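The median of the mitotic kinesins was -1.06 to -0.43 when 1 array was left out, lowest without spermidine replicate 1 and highest without spermidine replicate 2, and under the other normalizations, filters and class memberships it moved by less than the spread between replicates. Under further quantile normalization, median centring and cyclic loess, 13 mitotic kinesins again had both spermidine arrays below both control arrays. The count was also 13 or 14 without 1 array and 13 above background, but neither setting could lower it. A separated member stays so with fewer arrays, and the filter removed only Kif2b, whose spermidine arrays were higher. The median of the transport kinesins was 0.044 to 0.27 without 1 array and -0.053 among features above the median level and among those above background, a change of sign that comes from leaving out its dim members. No kinesin passed an adjusted p of 0.05 (limma) in any of 13 alternatives, where the smallest was 0.196. Of 477 single-kinesin values 457 kept their sign and 20 did not, all of them without 1 array, with these ranges: Kif12 (-0.030 to 0.064), Kif16b (-0.14 to 0.025), Kif19a (-0.16 to 0.073), Kif1a (-0.42 to 0.023), Kif21b (-0.44 to 0.12), Kif24 (-0.43 to 0.15), Kif26a (-0.18 to 0.38), Kif2a (-0.35 to 0.12), Kif3b (-0.21 to 0.099), Kif3c (-0.15 to 0.86), Kif4-ps (-0.040 to 0.18), Kif5b (-0.40 to 0.12), Kif7 (-0.21 to 0.77) and Kifc3 (-0.067 to 0.27). Many of the 457 could not have changed. Other priors, filters on dim features and the replicate block leave a single difference as it is in this balanced design, and array weights hardly moved it. Signs were therefore open to change only under the other normalizations or without 1 array. Over all features the count of 0 called became 1 (Hmox1, no kinesin) with a prior following intensity, median centring, cyclic loess, either filter on dim features or the replicate block, stayed 0 without any 1 array, and was 1558 at an unadjusted p under 0.05, of which 1345 also reached 1.5-fold. The replicate block could not move the kinesin medians of -0.75 and 0.18, since each replicate number has 1 array per group. Deviations of same-numbered arrays correlated by 0.21 over features, and with 2 pairs the numbers are not known to pair the cultures.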
